A study of Mus musculus with 6 samples.

Results

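Connexins are the proteins of gap junctions, the channels through which neighbouring cells exchange ions and small metabolites. Several connexin subunits form a ring in the membrane, and the rings of adjoining cells dock through their extracellular loops, which are held together by disulfide bonds between cysteines. Which cells can couple depends on which connexins they express, and *Gja1* (Cx43) and *Gjc1* (Cx45) are known from mouse embryonic stem cells. The 8 connexin genes described here, *Gja1*, *Gja3*, *Gja4*, *Gja5*, *Gjb1*, *Gjb2*, *Gjb5* and *Gjc1*, were taken by gene symbol from the 54715 genes of the deposited count table, which lists 20 connexin genes in all.

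RNA-Seq counts of 3 replicates of WT ASCs were compared with those of 3 replicates of *Bdh2*-knockout ASCs. ASCs (advanced embryonic stem cells) are mouse pluripotent cells grown in medium with BMP4, activin A, leukemia inhibitory factor and CHIR99021. Where 3 values of a genotype are listed, they are in the order of replicates 1 to 3. The cells of both genotypes came from a female 129/sv mouse crossed with a GOF/GFP male and thus carry a GFP reporter, and the knockout cells (*Bdh2*-/-) carry in addition a CRISPR/Cas9 deletion at the first coding exon of *Bdh2*, an enzyme of ketone body and siderophore metabolism. The study carried 1 knockout clone forward, so that genotype and clone cannot be told apart, and nothing in the sources used here says whether the replicates were separate cultures, so the p-values measure the spread between these libraries only.

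Libraries held 18927748 to 28333541 counts, at which 3 counts correspond to 0.106 to 0.158 CPM (counts scaled to equal library totals). *Bdh2* was at 9.43 ± 1.1 CPM after TMM normalization in WT ASCs and 5.44 ± 0.49 CPM in *Bdh2*-knockout ASCs (SD, n = 3), lower in all knockout libraries (log2 fold change -0.79, SE 0.12, edgeR adjusted p = 0.000246), and since reads from the rest of the gene are still counted, this level does not measure the deletion itself. The 12 pluripotency markers were counted in every genotype, with summed levels of 5922 to 6229 CPM in WT ASCs and 6363 to 6456 CPM in *Bdh2*-knockout ASCs. Transcripts of adult hepatocytes were also present and differed widely between libraries of the same genotype: the summed level of 24 hepatocyte genes ran from 44.0 to 590.4 CPM in WT ASCs and from 18.9 to 154.1 CPM in *Bdh2*-knockout ASCs, with *Alb* the most abundant of them and none at 0 in all libraries. The summed level of 15 primitive endoderm markers was 384 to 423 CPM in WT ASCs and 882 to 980 CPM in *Bdh2*-knockout ASCs. The fold changes of the 6 connexins that could be tested are therefore also given with a hepatocyte score (the mean log2 CPM of 23 hepatocyte genes) as a covariate and in the 3 libraries with the least *Alb*. Ratios, sums and shares of connexins and the connexins with few counts are given without these settings.

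The family is recognised by the cysteine codons of the first extracellular loop, by which connexins of adjoining cells dock. In each of the 8 genes a single in-frame stretch held 3 cysteine codons separated by 6 and by 3 codons, starting at codon 53 or 54. The stretches are shown because they are what makes these genes 1 family on 6 chromosomes, with the cysteine codons in capitals (GRCm38, transcripts of GENCODE M21, coding strand).
Gja1 (chr10:56387706-56387741, plus strand, exon 2 of 2): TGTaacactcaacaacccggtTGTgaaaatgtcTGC
Gjc1 (chr11:102800984-102801019, minus strand, exon 3 of 3): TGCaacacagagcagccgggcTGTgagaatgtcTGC
Gja3 (chr14:57036719-57036754, minus strand, exon 2 of 2): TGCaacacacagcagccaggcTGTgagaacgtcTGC
Gja4 (chr4:127312774-127312809, minus strand, exon 2 of 2): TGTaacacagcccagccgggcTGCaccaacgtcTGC
Gja5 (chr3:97050788-97050823, plus strand, exon 3 of 4): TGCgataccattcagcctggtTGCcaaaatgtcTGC
Gjb1 (chrX:101384324-101384359, plus strand, exon 2 of 2): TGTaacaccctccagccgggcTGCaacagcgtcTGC
Gjb2 (chr14:57100558-57100593, minus strand, exon 2 of 2): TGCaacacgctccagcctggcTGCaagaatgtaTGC
Gjb5 (chr4:127356158-127356193, minus strand, exon 2 of 2): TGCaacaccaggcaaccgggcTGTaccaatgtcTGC
Of the 36 bases, *Gja3* and *Gjc1* shared 28 with *Gja1*, whereas *Gja4* shared 24. The other 4 shared 25 or 26. In 7 of the 8 genes the whole coding sequence lies in 1 exon, and *Gja5* has 2 coding exons. No other annotated gene overlaps 7 of them. *Gja5* is overlapped by 4 genes, and 24.2% of the 50-base stretches of its longest transcript also occur in transcripts of other genes, so its counts are uncertain.

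Of the 8 connexins, 6 had enough counts to be tested, and 5 of these passed the threshold (edgeR quasi-likelihood test, Benjamini-Hochberg adjusted p under 0.05 over 16758 genes). *Gja1* was higher in *Bdh2*-knockout ASCs, and *Gjc1*, *Gjb5*, *Gja4* and *Gjb2* were lower. *Gjb1* did not pass. For comparison, 41.7% of all tested genes passed, 21% as higher and 20.8% as lower. Without TMM normalization, 38.0% instead of 50.3% of the genes that passed were higher, and the calls of the 5 connexins were the same. The median log2 fold change of the 6 connexins was -0.60, against -0.01 over all tested genes. This median includes *Gjb1*, whose estimate of -0.95 became 0.17 with the hepatocyte score and -0.07 in the 3 libraries with the least *Alb*. The connexins were chosen with earlier results of these data known, so the comparisons with all genes are descriptions. The groups did not overlap for 5 of the 6, which was the case for 52.4% of all tested genes. With the hepatocyte score as a covariate 3 connexins passed (*Gja1*, *Gja4* and *Gjb2*), and in the 3 libraries with the least *Alb* also 3 (*Gja1*, *Gjc1* and *Gjb2*). Fewer of all tested genes passed at these settings too, 31.3% and 29.3%. *Gja1* and *Gjb2* passed under every setting tried.

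**Figure D1:**
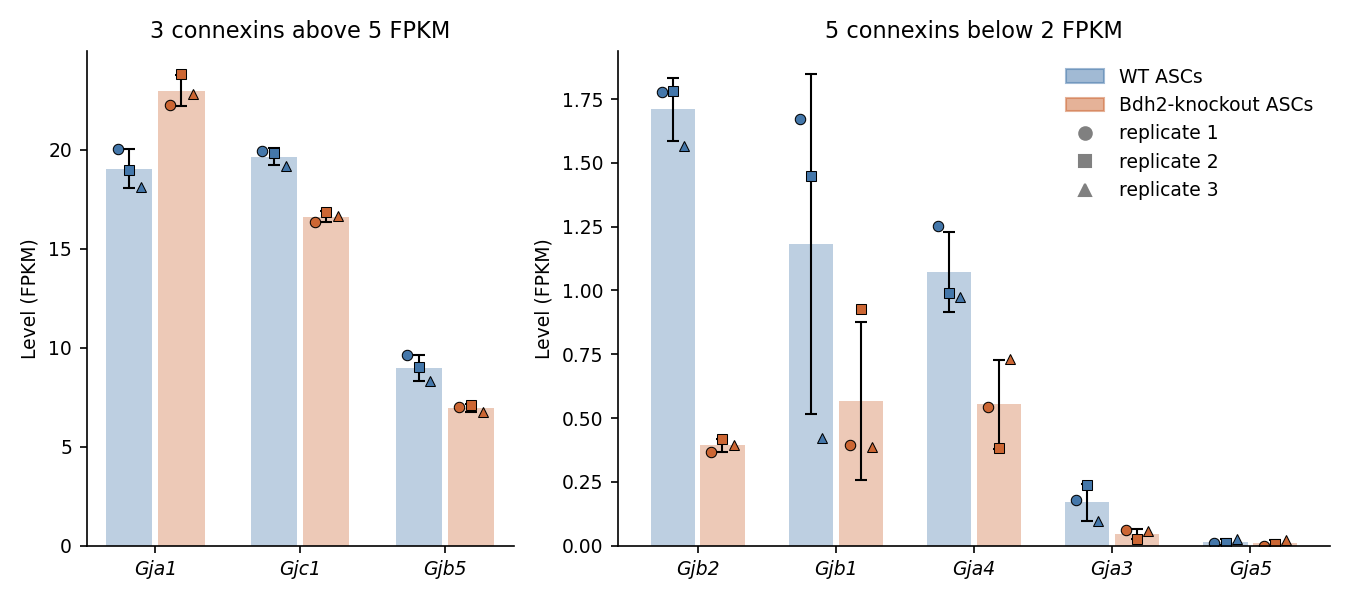
Levels of the 8 connexins in FPKM (linear axes, the 2 panels with different scales) in WT ASCs and *Bdh2*-knockout ASCs; bars are means of 3 replicates, error bars SD and symbols single libraries. *Gja1* is the only one of the 8 with all knockout libraries above all WT libraries, whereas the *Gjb1* libraries of the genotypes overlap.

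*Gja1*, the most widely expressed connexin and the main one of the inner cell mass, lies on the plus strand of chromosome 10 from 56377330 to 56402513. It had 3892, 3860 and 4633 counts in the WT libraries and 6474, 6798 and 5696 counts in the knockout libraries. Scaled to the listed gene length and the library total (FPKM), this was 20.0, 19.0 and 18.1 FPKM in WT ASCs and 22.3, 23.8 and 22.8 FPKM in *Bdh2*-knockout ASCs. All knockout libraries were above all WT libraries. The mean level rose from 19.0 ± 0.97 to 23.0 ± 0.77 FPKM (SD, n = 3). The log2 fold change was 0.33 after TMM normalization (SE 0.05, edgeR adjusted p = 0.000248) and 0.27 with library totals, on which FPKM rests. All other fold changes from edgeR are after TMM normalization unless stated, so they can differ from the ratio of the FPKM means. Of the connexins tested it was the only one to rise. The estimate was 0.39 with the hepatocyte score as a covariate and 0.36 in the 3 libraries with the least *Alb*, of which only 1 is of WT ASCs. The primitive endoderm markers were higher in the knockout libraries. The part of hepatocyte transcripts and of primitive endoderm markers in the result was not tested.

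*Gjc1*, the other connexin of early embryonic cells and of the developing heart, lies on the minus strand of chromosome 11 from 102799579 to 102819700. Its counts were 1887, 1968 and 2390 in WT ASCs and 2314, 2350 and 2028 in *Bdh2*-knockout ASCs, which gave 19.9, 19.8 and 19.2 FPKM against 16.3, 16.9 and 16.7 FPKM. The groups were apart and each varied by about 2% (coefficients of variation 2.18% and 1.66%). The decrease was small, with a log2 fold change of -0.18 (SE 0.05, edgeR adjusted p = 0.0086). It missed the threshold with the hepatocyte score as a covariate (-0.16, adjusted p = 0.0676) and without *Bdh2*-knockout replicate 1 (-0.16, adjusted p = 0.052) or 3 (-0.17, adjusted p = 0.0525), but not in the 3 libraries with the least *Alb* (-0.17, adjusted p = 0.0265).

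*Gja1* and *Gjc1* thus moved in opposite directions. Their ratio within a library, which does not depend on library size, was 1.01, 0.957 and 0.946 in the WT libraries and 1.36, 1.41 and 1.37 in the knockout libraries. The ratio was higher in every knockout library (0.969 ± 0.032 against 1.38 ± 0.03, SD, n = 3), with an exact permutation p of 0.1, two-sided, the smallest that 3 against 3 libraries allow. In WT ASCs the libraries of *Gjc1* and *Gja1* overlapped in level, and in *Bdh2*-knockout ASCs *Gja1* was above *Gjc1* in all of them. The order depends on the length used. The listed length of *Gja1*, 10257 bases, covers the exons of all 8 transcripts, whereas the coding transcript used here has 3182 bases (*Gjc1*: 5003 and 2314). Several transcripts can hold the full coding sequence, and the longest of those was taken for each gene, so these levels rest on that choice. With the coding transcript lengths *Gja1* was first in both genotypes, at 61.4 ± 3.1 and 74.0 ± 2.5 FPKM, and *Gjc1* second, at 42.5 ± 0.9 and 35.9 ± 0.6 FPKM (SD, n = 3). Fold changes do not depend on the length. Below these, the order by listed length was *Gjb5*, *Gjb2*, *Gjb1*, *Gja4*, *Gja3* and *Gja5* in WT ASCs, where the libraries of *Gjb1* overlapped with those of *Gjb2* and of *Gja4*. In *Bdh2*-knockout ASCs *Gjb2* came after *Gjb1* and *Gja4*, and neighbours among these 3 overlapped.

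*Gjb2* (Cx26), a connexin of the inner ear, skin, liver and placenta, lies on the minus strand of chromosome 14 from 57098600 to 57104702. It had 81, 85 and 94 counts in the WT libraries and only 25, 28 and 23 counts in the knockout libraries, although the knockout libraries were on average deeper. The levels were 1.78, 1.78 and 1.57 FPKM in WT ASCs and 0.367, 0.418 and 0.393 FPKM in *Bdh2*-knockout ASCs. All knockout libraries were far below all WT libraries, and replicates of a genotype varied by 7.24% and 6.53% (coefficients of variation). The log2 fold change was -2.06 (SE 0.19, edgeR adjusted p = 4.12e-06), which is 4.16-fold lower and the largest change of the 6 connexins tested. It was -1.96 with the hepatocyte score as a covariate and -1.99 in the 3 libraries with the least *Alb*. The range over all settings was -2.11 to -1.96.

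The sequences before the start sites of the connexin that rose and of the one that fell most are printed for comparison, since these members moved in opposite directions. Of the 8 genes, 7 were found in the RefSeq promoter table (GRCm38.p6), with 11 start sites in all. *Gjc1* was not among them. Capitals mark matches on either strand to TATAAA, the motif of the core promoter, to GGGCGG, which Sp1 binds, to CCAAT, which the factor NF-Y binds, to TGANTCA, the site of AP-1, to AGATAA, which GATA factors bind, or to ATGCAAAT, which octamer factors bind. No matches overlapped in the printed stretches. Each stretch is the 250 bases that precede the start site.
Gja1 promoter (chr10:56377050-56377299, plus strand): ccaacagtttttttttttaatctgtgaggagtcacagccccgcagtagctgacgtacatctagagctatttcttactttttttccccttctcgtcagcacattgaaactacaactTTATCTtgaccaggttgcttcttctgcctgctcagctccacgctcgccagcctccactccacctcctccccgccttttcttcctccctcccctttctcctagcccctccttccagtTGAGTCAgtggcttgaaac
Gjb2 promoter (chr14:57104703-57104952, minus strand): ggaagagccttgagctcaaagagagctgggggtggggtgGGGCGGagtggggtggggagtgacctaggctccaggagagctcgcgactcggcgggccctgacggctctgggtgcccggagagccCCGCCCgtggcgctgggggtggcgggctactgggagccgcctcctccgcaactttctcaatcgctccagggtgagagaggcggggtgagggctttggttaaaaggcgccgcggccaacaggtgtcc
The *Gja1* stretch held 1 match to the AP-1 site that begins 19 bases before the start and 1 match to the GATA motif that begins 135 bases before it, motifs that 6.75% and 9.99% of the 32851 start sites of the table hold in the same window. The *Gjb2* stretch held GGGCGG matches that begin 211 and 126 bases before the start, a motif found in 32.7% of all windows. It contained 18 CpG dinucleotides against 6 for *Gja1*, and the median over all windows was 6. Neither held TATAAA (in 12.4% of all windows), CCAAT (33.8%) or the octamer motif (1.60%). Of the connexins that fell, *Gja4* held 1 GGGCGG, and *Gjb5* held 1 CCAAT and, 243 bases before the start, 1 TATAAA. A match is a description of the sequence and not evidence of binding.

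*Gjb1* (Cx32), the main connexin of hepatocytes and of Schwann cells, lies on the plus strand of the X chromosome from 101376378 to 101385629. Its counts were 54, 49 and 18 in the WT libraries and 19, 44 and 16 in the knockout libraries, or 2.85, 2.47 and 0.722 CPM against 0.671, 1.58 and 0.658 CPM. The genotypes overlapped, since WT replicate 3 was below knockout replicate 2. The log2 fold change of -0.95 did not pass (SE 0.45, edgeR adjusted p = 0.106). Leaving out WT replicate 3 (-1.38, adjusted p = 0.00619) or knockout replicate 2 (-1.50, adjusted p = 0.0306) brought it past the threshold, so the call rests on those libraries.

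Since *Gjb1* and *Gjb2* are both made by hepatocytes, each was set against *Alb*, which encodes serum albumin. *Alb* was at 339, 201 and 22.3 CPM in the WT libraries and at 16.8, 86.5 and 8.55 CPM in the knockout libraries. Ranked over the 6 libraries, *Gjb1* had the same order as *Alb*, and each rank of *Gjb2* was 1 away from that of *Alb*, so the order alone does not set them apart and the sizes are given. Within WT ASCs the library with the most *Alb* had 15.2 times as much as that with the least, and *Gjb1* was 3.95 times and *Gjb2* 1.14 times as high in it. Within *Bdh2*-knockout ASCs *Alb* differed 10.1-fold, *Gjb1* 2.40-fold and *Gjb2* 1.06-fold. Within each genotype *Gjb1* thus varied more with *Alb* than *Gjb2* did, a description that was not tested.

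In the 3 libraries with the least *Alb*, 1 of WT ASCs and 2 of *Bdh2*-knockout ASCs, the level of *Gjb1* was 0.722, 0.671 and 0.658 CPM. These lie close together, with a log2 fold change of -0.07 between the genotypes (edgeR adjusted p = 0.939). With the hepatocyte score as a covariate the estimate was 0.17 and thus on the other side of 0 (adjusted p = 0.728). Since *Gjb1* is absent from the hepatocyte list, the score does not contain it. All of these levels were above the 3-count floor. In bulk RNA, fewer cells of a type and less RNA per cell cannot be told apart.

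**Figure D2:**
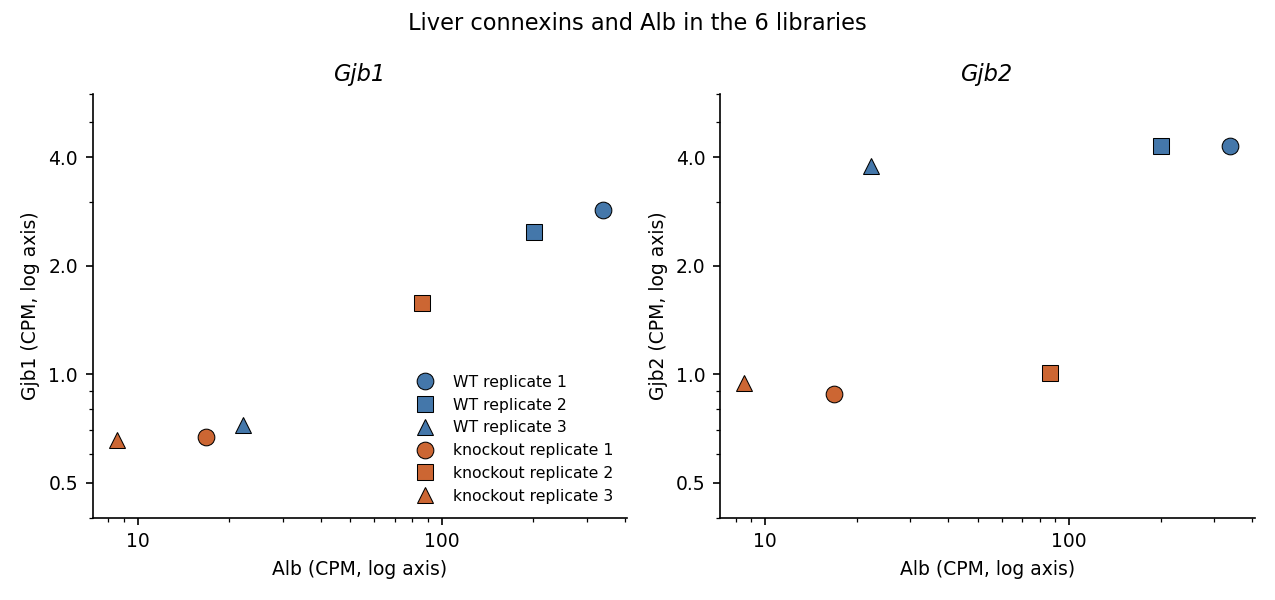
*Gjb1* (left) and *Gjb2* (right) against *Alb* in the 6 libraries, all in CPM on log axes, with a symbol for each replicate and a colour for each genotype. *Gjb1* follows the order of *Alb* across both genotypes, whereas *Gjb2* falls into 2 levels by genotype, 3.77 to 4.29 CPM in WT ASCs and 0.882 to 1.01 CPM in *Bdh2*-knockout ASCs.

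*Gjb5* (Cx31.1) is a connexin of skin and trophoblast. It lies on the minus strand of chromosome 4 from 127354809 to 127358181. Its counts were 313, 308 and 356 in WT ASCs and 342, 341 and 282 in *Bdh2*-knockout ASCs, and its levels 9.61, 9.03 and 8.29 FPKM against 7.01, 7.12 and 6.74 FPKM. All knockout libraries were below all WT libraries. The log2 fold change was -0.31 (SE 0.08, edgeR adjusted p = 0.00893), and within each genotype the order of the libraries was that of *Alb*. The estimate was -0.22 both with the hepatocyte score as a covariate (adjusted p = 0.111) and in the 3 libraries with the least *Alb* (adjusted p = 0.146), and neither passed. It also missed the threshold without knockout replicate 3 (-0.27, adjusted p = 0.0513). Of 14 trophoblast markers, *Tpbpa* and *Prl3d1* were at 0 in all libraries, and the summed level overlapped between the genotypes (176 to 201 CPM and 176 to 180 CPM). Of the 10 that could be tested, *Tfap2c* (log2 fold change -0.60), *Krt7* (-0.74), *Hand1* (-0.73) and *Ascl2* (-0.30) were lower, *Eomes* (0.88) was higher and 5 did not pass. Thus 50% of them passed, close to the 41.7% of all tested genes. The part of the trophoblast markers in the result was not tested.

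*Gja4* (Cx37), the connexin of arterial endothelium and of the oocyte, lies on the minus strand of chromosome 4 from 127311421 to 127314039. It had 40, 33 and 41 counts in the WT libraries and 26, 18 and 30 counts in the knockout libraries, with levels of 1.25, 0.988 and 0.975 FPKM against 0.545, 0.384 and 0.732 FPKM. The groups were apart, and at these counts the spread was wide. The log2 fold change of -0.90 (SE 0.27, edgeR adjusted p = 0.0186) still passed with the hepatocyte score as a covariate (-0.98, adjusted p = 0.0353). It was -0.57 in the 3 libraries with the least *Alb* (adjusted p = 0.287), and it missed the threshold without WT replicate 1 (-0.78, adjusted p = 0.0705), knockout replicate 1 (-0.88, adjusted p = 0.0518) or knockout replicate 2 (-0.69, adjusted p = 0.077). DESeq2 on all genes with a count gave -0.89 (adjusted p = 0.0552). The summed level of 10 endothelial markers overlapped between the genotypes, at 126 to 134 CPM in both, but its members moved both ways. Of the 8 that could be tested, 3 were higher, among them *Flt1* (log2 fold change 1.91) and *Kdr* (1.75), 2 were lower, *Vwf* (-1.18) and *Pecam1* (-0.54), and 3 did not pass. Thus 62.5% of them passed, beside 41.7% of all tested genes. The part of the endothelial markers in the result was not tested.

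*Gja3* (Cx46), known from the lens, lies next to *Gjb2* on chromosome 14, on the minus strand from 57034460 to 57058100, with 40.5 kb between them. It had 10, 14 and 7 counts in the WT libraries and 5, 2 and 4 counts in the knockout libraries, too few for the filter on low counts. Its level was 0.170 ± 0.072 FPKM in WT ASCs and 0.0464 ± 0.0193 FPKM in *Bdh2*-knockout ASCs (SD, n = 3). The knockout libraries were all below the WT libraries. When genes with a mean count of at least 5 were tested, a setting chosen after these counts were seen, the log2 fold change was -1.75 (SE 0.54, edgeR adjusted p = 0.021), with 18.2% of 18567 genes lower at that setting. DESeq2 on all genes with a count gave -1.80 (adjusted p = 0.074), so the decrease was not settled at this depth.

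*Gja5* (Cx40), a connexin of arteries and of the cardiac conduction system, lies on the plus strand of chromosome 3 from 96904693 to 97077416. Its counts were 1, 1 and 4 in WT ASCs and 0, 1 and 3 in *Bdh2*-knockout ASCs. Only WT replicate 3 was above the 3-count floor. A difference between the genotypes was not detectable at this depth, and no fold change is given.

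**Figure D3:**
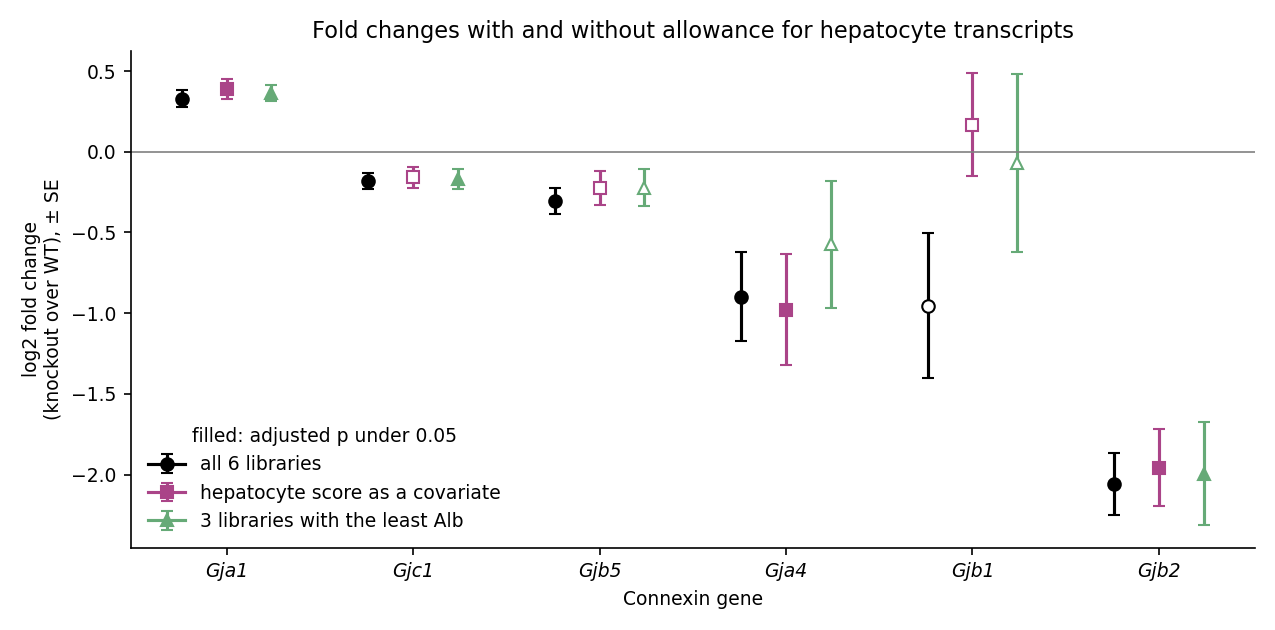
Log2 fold change (knockout over WT, ± SE) of the 6 tested connexins with all 6 libraries, with the hepatocyte score as a covariate and in the 3 libraries with the least *Alb*; filled symbols have an adjusted p under 0.05. *Gja1* and *Gjb2* stay past the threshold in all of these fits, and *Gjb1* moves from -0.95 to 0.17 and -0.07.

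Of the 12 other connexins, 10 had at most 9 counts in any library. *Gjd2* (Cx36), the connexin of neurons, is named here after its values were seen. It was counted 0 times in all WT libraries and 4, 5 and 9 times in the knockout libraries, which is at least 4.75-fold higher when 3 counts over the WT group are taken as the floor. The pannexins form channels of similar shape that open to the outside of the cell. *Panx1*, the widely expressed one, was higher in *Bdh2*-knockout ASCs (log2 fold change 0.37, SE 0.09, edgeR adjusted p = 0.00499), but did not pass in the 3 libraries with the least *Alb* (0.18, adjusted p = 0.236). *Panx2* was at 0.39 and did not pass (SE 0.39, edgeR adjusted p = 0.443), and *Panx3* was at 0 in every library.

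Summed over the 20 connexins, the transcript level was 73.5, 75.6 and 71.9 FPKM in the WT libraries and 63.0, 65.8 and 63.1 FPKM in the knockout libraries. It was lower in every knockout library (73.7 ± 1.8 against 64.0 ± 1.6 FPKM, SD, n = 3, exact permutation p = 0.1, two-sided, the smallest possible). The decrease depends on the gene lengths, because *Gja1* counts for more with its coding transcript length, and the sums were then 139.9 ± 3.8 and 135.1 ± 3.6 FPKM with overlapping libraries. The make-up of the sum shifted under both lengths. *Gja1* made up 27.3%, 25.1% and 25.2% of it in the WT libraries and 35.4%, 36.2% and 36.2% in the knockout libraries. With the coding transcript lengths its share was 43.9 ± 1.4% and 54.8 ± 0.5%. The share of *Gjb2* was 2.32 ± 0.13% in WT ASCs and 0.614 ± 0.028% in *Bdh2*-knockout ASCs, while that of *Gjc1* overlapped (26.7 ± 0.4% and 26.0 ± 0.4%).

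**Figure D4:**
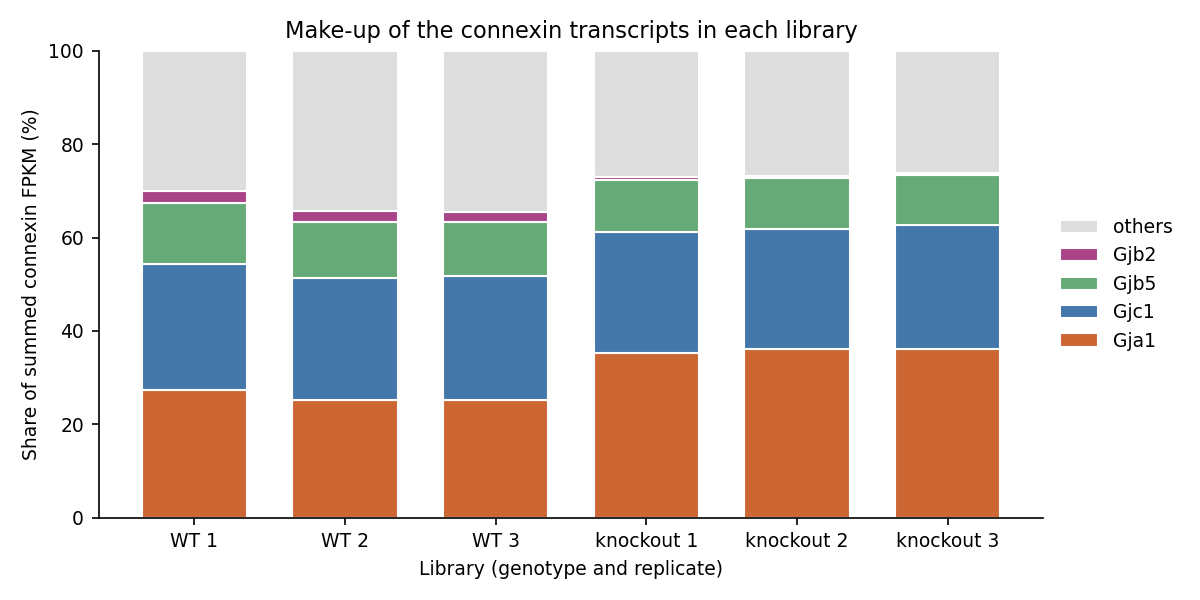
Share of the summed connexin FPKM (%) held by each connexin in the 6 libraries, with the listed gene lengths; the connexins not named are pooled as others. *Gja1* holds 25.1% to 27.3% in WT ASCs and 35.4% to 36.2% in *Bdh2*-knockout ASCs.

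Connexins are held at the membrane by scaffold and adhesion proteins and are opened, closed and turned over by kinases. Of 32 genes for such partners, 30 could be tested, and 14 were higher, 3 lower and 13 did not pass. This is 56.7% of them, beside 41.7% of all genes, with a median log2 fold change of 0.15. Without TMM normalization 8 were higher and 4 lower, 40% of the partners beside 42.9% of all genes, so both the balance and the excess over all genes depend on the scaling. *Tjp1* (ZO-1), a scaffold that binds the tail of *Gja1* protein, rose by 0.18 on the log2 scale (SE 0.05, edgeR adjusted p = 0.0125), and *Ctnnb1* (beta-catenin) by 0.17 (SE 0.05, edgeR adjusted p = 0.0118), but both missed the threshold without TMM normalization (adjusted p = 0.0598 and 0.0752), and *Tjp1* also with the hepatocyte score as a covariate (adjusted p = 0.125) and in the 3 libraries with the least *Alb* (adjusted p = 0.0726). *Cdh1* (E-cadherin), whose adhesion precedes gap junction assembly, was at 0.02 (SE 0.04, edgeR adjusted p = 0.769).

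The smallest adjusted p of these partners was that of *Dbn1* (drebrin), which links *Gja1* protein to actin and rose by 0.55 (SE 0.06, edgeR adjusted p = 2.32e-05). Among the kinases that phosphorylate *Gja1* protein, *Csnk1d* (casein kinase 1 delta) rose by 0.41 (SE 0.05, edgeR adjusted p = 6.01e-05) and *Prkce* (protein kinase C epsilon) by 0.67 (SE 0.12, edgeR adjusted p = 0.000758). *Mapk3* (ERK1) fell, with a log2 fold change of -0.28 (SE 0.05, edgeR adjusted p = 0.000991).

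Of 54 genes for the receptors, G proteins, cyclases and kinases that signal to gap junctions, 44 could be tested, and 14 were higher, 7 lower and 23 did not pass. That is 47.7%, close to the 41.7% of all genes, and the median log2 fold change was 0.13. In the 3 libraries with the least *Alb*, 9 were higher and 7 lower, with fewer of all genes past the threshold as well (29.3%). The largest change was that of *Pdgfra*, a growth factor receptor that is also 1 of the 15 primitive endoderm markers, with a log2 fold change of 2.04 (SE 0.17, edgeR adjusted p = 1.98e-06). Its ligand *Pdgfc* rose by 0.88 (SE 0.10, edgeR adjusted p = 1.71e-05), *Adcy1*, an adenylyl cyclase, by 0.80 (SE 0.08, edgeR adjusted p = 8.33e-06) and *Lpar1*, a receptor for lysophosphatidic acid, by 0.68 (SE 0.11, edgeR adjusted p = 0.000308). *Itpr1*, a calcium channel of the endoplasmic reticulum, fell (log2 fold change -0.39, SE 0.05, edgeR adjusted p = 5.57e-05).

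**Figure D5:**
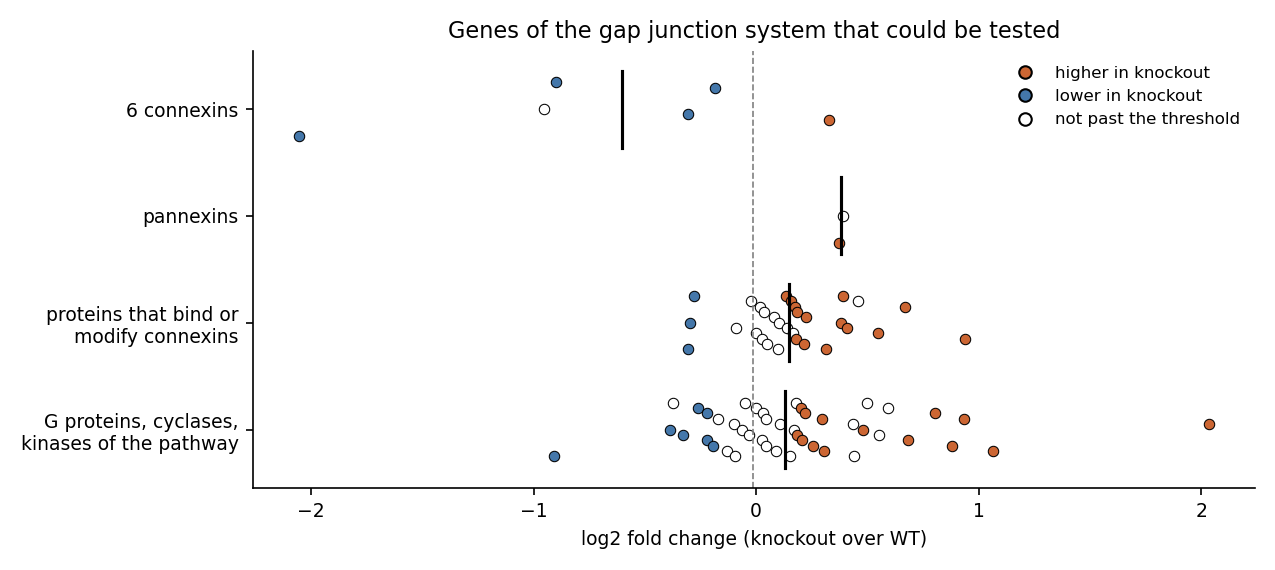
Log2 fold change (knockout over WT) of the tested genes of the connexins, pannexins, partners and signalling genes, each point a gene, coloured where its adjusted p is under 0.05; black bars are medians of a list and the dashed line is the median of all tested genes. The 6 connexins have a median of -0.60, and the partners and signalling genes have medians of 0.15 and 0.13. All values are from the fit with all 6 libraries and no hepatocyte covariate.

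The genes whose level most resembled that of a connexin were found by Pearson's r of log2 CPM over the 6 libraries, a description in which the libraries fall into 2 genotypes. For *Gjb1* these were *Fgb* and *Cyp3a11* (r = 0.997 for both), which are on the hepatocyte list. For *Gja1* they were *Slu7* (r = 0.998), a splicing factor, and *Hspa5* (r = 0.997), a chaperone of the endoplasmic reticulum. *Gjb2* was most like *Zfp639* and *Cnpy2* (r = 0.999 for both), *Gjc1* like *Ifi30* (r = 0.999) and *2010015M23Rik* (r = 0.998), *Gjb5* like *Fh1* and *Gtpbp10* (r = 0.998 for both), and *Gja4* like *Cyp46a1* and *Gm44200* (r = 0.996 for both). None of the genes found for the other 5 connexins is on the hepatocyte list.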

How the data were processed

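RNA of 3 replicates each of WT ASCs and *Bdh2*-knockout ASCs was measured. The authors trimmed the reads, mapped them with Hisat2 (2.0.5 per the labels), counted them with FeatureCounts and deposited the raw counts per gene, with coordinates that match GENCODE M21 on GRCm38 for the genes described. The use of strand and the handling of reads with several matches are not given in the sources used here. FPKM was computed from counts, listed length and library total.

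The counts were fitted in R 4.3.3 with edgeR 4.0.16 (TMM, filterByExpr, quasi-likelihood test, genotype only, Benjamini-Hochberg over 16758 genes, threshold 0.05). DESeq2 1.42.0 and limma 3.58.1 (voom) were alternatives. Single values were compared by two-sided exact permutation tests. Promoters came from RefSeq (GRCm38.p6). Python 3.11.15, pandas 2.3.3 and matplotlib 3.10.9 made tables and plots. The functions were tested on simulated data.

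The connexins and gene lists were chosen with earlier results of these data known. Genes named are the 8 connexins, *Bdh2*, *Alb*, other connexins or pannexins that passed the filter, the 5 partners and 5 signalling genes with the smallest adjusted p, *Tjp1*, *Cdh1* and *Ctnnb1*, and for each tested connexin the 2 genes most correlated with it. Some genes that this rule takes in are not reported here, and counts and sums over lists include them. The 3-count floor covers counting error only, whereas the SD and SE values also hold the spread between libraries. No replicate pair differed by less than sampling noise (chi-square per gene 4.10 to 9.67 within genotypes).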

Additional observations from a re-analysis of the deposited data

How the results depend on the processing

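The direction of the 6 tested connexins was the same in every fit except for *Gjb1*, which was at 0.17 with the hepatocyte score as a covariate, where *Alb* itself was at 0.069. *Cdh1* turned to -0.040 without TMM normalization and to -0.0069 in the 3 libraries with the least *Alb*. With the hepatocyte score, where 31.3% of all genes passed against 41.7%, 3 connexins passed (2 lower) and 9 partners were higher. In the 3 libraries with the least *Alb*, where 29.3% of all genes passed, 3 connexins passed (2 lower), 1 other connexin or pannexin passed, and 9 partners and 9 signalling genes were higher. That fit has 1 WT library, which is assumed to vary like the knockout libraries. Without TMM normalization 8 partners were higher. The summed connexin level in knockout over WT was 0.868, 0.904 with the TMM library size and 0.966 with coding transcript lengths. With each library left out in turn, 4 to 7 connexins passed (3 to 6 lower), beside 32.5% to 43.0% of all genes. The upper end of both was without WT replicate 3, where *Gja3* and *Gjb1* were among the connexins. *Gja3*, which is not among the 6 tested connexins, was also counted without knockout replicate 1 and without knockout replicate 3. Of the 6 tested connexins, only *Gja1*, *Gjb2* and *Gjb5* passed without knockout replicate 1. Only *Gja1*, *Gja4* and *Gjb2* of them passed without knockout replicate 3. The cause of these changes was not tested. The fit without a filter on low counts gave *Alb* an SE of 0.06 against 0.77 with the filter, so its calls, *Gjb1* (adjusted p = 0.0039) and *Gja3* (adjusted p = 0.0136) included, rest on a smaller spread than the 15.2-fold range of *Alb* within WT ASCs. *Gja4* had too few counts at the stricter filter (mean count 50 or more). Whether the replicate numbers pair the samples is not settled. Deviation correlations were -0.16, 0.05 and 0.22 for same-numbered libraries and -0.31 to 0.31 for the others. With 3 libraries per genotype they can neither show nor exclude pairing. With the replicate block (38.5% of all genes passed) 6 connexins passed (5 lower), *Gjb1* among them (-0.95, adjusted p = 0.0327), and the numbers of other connexins and pannexins, partners and signalling genes were 2, 15 and 19, against 2, 17 and 21. The fits with a mean count of at least 5 and with DESeq2 on all genes, and the coding transcript lengths, were chosen after the data were seen. Depth limits *Gja3* and *Gja5*.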
